A study of Mus musculus with 17 samples.

Results

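The cytosolic heat shock proteins of muscle were described as a group of 10 genes, Hspa8, Hsph1, Hsp90aa1, Hsp90ab1, Hspb1, Hspb6, Hspb7, Hspb8, Cryab and Bag3, in skeletal muscle of diabetic mice and of diabetic mice given bezafibrate. A gene was taken from the table through the probe sets that carried its symbol alone, and where several did, the probe set brightest on average over the 17 arrays stood for it. By this rule 9 of the 10 genes were measured, among 19938 genes in all. Hsp90ab1, the constitutive form of HSP90, had no probe set under its own symbol and is not analysed here.

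Heat shock proteins are chaperones: they hold unfolded proteins, refold them, or pass them on for breakdown. HSC70 and the HSP90 proteins use ATP and work in turn on the same clients, with co-chaperones that carry clients between them, while the small heat shock proteins and alpha B-crystallin work without ATP and keep stretched or damaged proteins from clumping. Muscle is rich in the small forms, which sit at the Z-disc and on desmin and titin, and BAG3 joins small heat shock proteins to HSC70 so that worn filamin can be removed.

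The arrays came from male wildtype C57BL/6N mice aged 5 to 6 months, which had been 10 to 16 weeks old at injection, with 1 array per mouse. Con, SD mice (n = 7) were mock-injected with citrate buffer and ate standard chow. STZ, SD mice (n = 5) received streptozotocin, which kills beta cells of the pancreas and so takes away insulin, at 65 mg/kg on 5 days and ate the same chow. STZ, BEZ mice (n = 5) received streptozotocin and, beginning 2 weeks afterwards, chow with 0.25% or 0.5% bezafibrate for 8 weeks. Bezafibrate is a lipid-lowering drug that activates peroxisome proliferator-activated receptors. These details are the labels'. In the study's methods text the streptozotocin dose is lower, a single age at injection within that range is named, bezafibrate is given at the higher strength alone and the controls are untreated, and no source used here says which mouse ate which strength or which muscle was taken. All values below are log2 expression values from Affymetrix Mouse Gene 1.0 ST arrays, where a difference of 1 is a 2-fold change, and differences are given ± SE. Brightness of different probe sets is not comparable, so each gene is set only against itself.

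Genes of skeletal muscle were bright on all arrays: the lowest value over the 17 arrays was 13.98 for Acta1, the muscle actin, and 13.80 for Ckm, the muscle creatine kinase. Arrays of the same group correlated at 0.959 or more in Con, SD and at 0.988 or more in the streptozotocin groups. Con, SD array 1 stood apart: the mean of 13 hepatocyte markers was 11.62 there and at most 9.74 on any other array, and that of 10 testis genes was 8.50 against at most 5.79. The mean of 7 slow fibre markers was 6.76 to 9.45 in Con, SD mice, while STZ, SD mice spanned 6.76 to 10.01 and STZ, BEZ mice 8.55 to 10.41, so mice of 1 group differed in their slow fibre RNA. In whole muscle, fewer cells of a type and less RNA per cell cannot be told apart.

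The sequences before the gene starts were searched for the heat shock element, the letters that heat shock factor binds, since genes of this group are textbook targets of that factor. The search covered the 250 bases before each RefSeq start (GRCm38.p6) and used the 2-unit forms GAANNTTC and TTCNNGAA, each of which reads the same on both strands. Starts were listed for 6 of the 10 genes, in 8 windows. Hspa8, Hsp90aa1, Hsp90ab1 and Cryab had no start listed and were not searched. A 2-unit element lay in 4 of the 8 windows and in 12.8% of the 32851 windows of all genes. Of these 4, 2 are overlapping windows of Hsph1 that hold the same element, so 3 genes had one. The 3-unit form, in which a further GAA or TTC follows after 2 bases and which therefore always holds a 2-unit element, lay in 0 of the 8 and in 0.466% of all.

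Hspb1, whose RNA rose in the diabetic mice, had 2 elements, which start 117 and 97 bases before its start. Hspb8, whose values went up and down with those of Hspb1 among mice of a group, had none in its window. Both windows are shown 5′ to 3′ along the gene's strand, with the elements in capitals.
Hspb1, chr5:135887669-135887918, plus strand: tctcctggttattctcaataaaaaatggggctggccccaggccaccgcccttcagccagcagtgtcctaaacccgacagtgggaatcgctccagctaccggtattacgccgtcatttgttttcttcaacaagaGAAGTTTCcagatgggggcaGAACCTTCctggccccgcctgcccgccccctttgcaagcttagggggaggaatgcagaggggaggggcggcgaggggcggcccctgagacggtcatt
Hspb8, chr5:116422865-116423114, minus strand: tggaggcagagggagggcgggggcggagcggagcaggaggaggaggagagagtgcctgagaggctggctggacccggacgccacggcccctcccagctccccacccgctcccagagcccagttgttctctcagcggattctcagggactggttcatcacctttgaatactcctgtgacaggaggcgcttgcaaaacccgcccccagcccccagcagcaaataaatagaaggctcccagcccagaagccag
The elements of Hsph1, whose RNA fell in the diabetic mice, and of the downstream start of Hspb6, whose RNA was not called, are shown with 10 bases on each side. Each lies within the span of its gene, since the annotated span of the gene begins farther upstream than the start used.
Hsph1, chr5:149636352-149636379, minus strand: ggtagaatctTTCTCGAAggctcgagaa
Hspb6, chr7:30553171-30553198, plus strand: agtaattattGAAGTTTCtaaataagga
A match says that these letters are present and not that the factor is bound. Among the genes searched, the element therefore occurred before a gene that rose, a gene that fell and a gene that was not called.

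The first comparison, STZ, SD against Con, SD, addressed the effect of insulin deficiency on muscle. Among the 9 genes, Hspb1 rose and Hspa8 and Hsph1 fell, and the other 6 were not called at a Benjamini-Hochberg adjusted p under 0.1 over all genes in limma. The background was high: 25.8% of all genes were called, 13.9% higher and 11.9% lower, so 3 called of 9 is near the share of genes at large. The median difference of the 9 was 0.02, beside -0.01 over all genes. The single genes, and not the group, are therefore what follows, in the order of their roles.

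**Figure D1:**
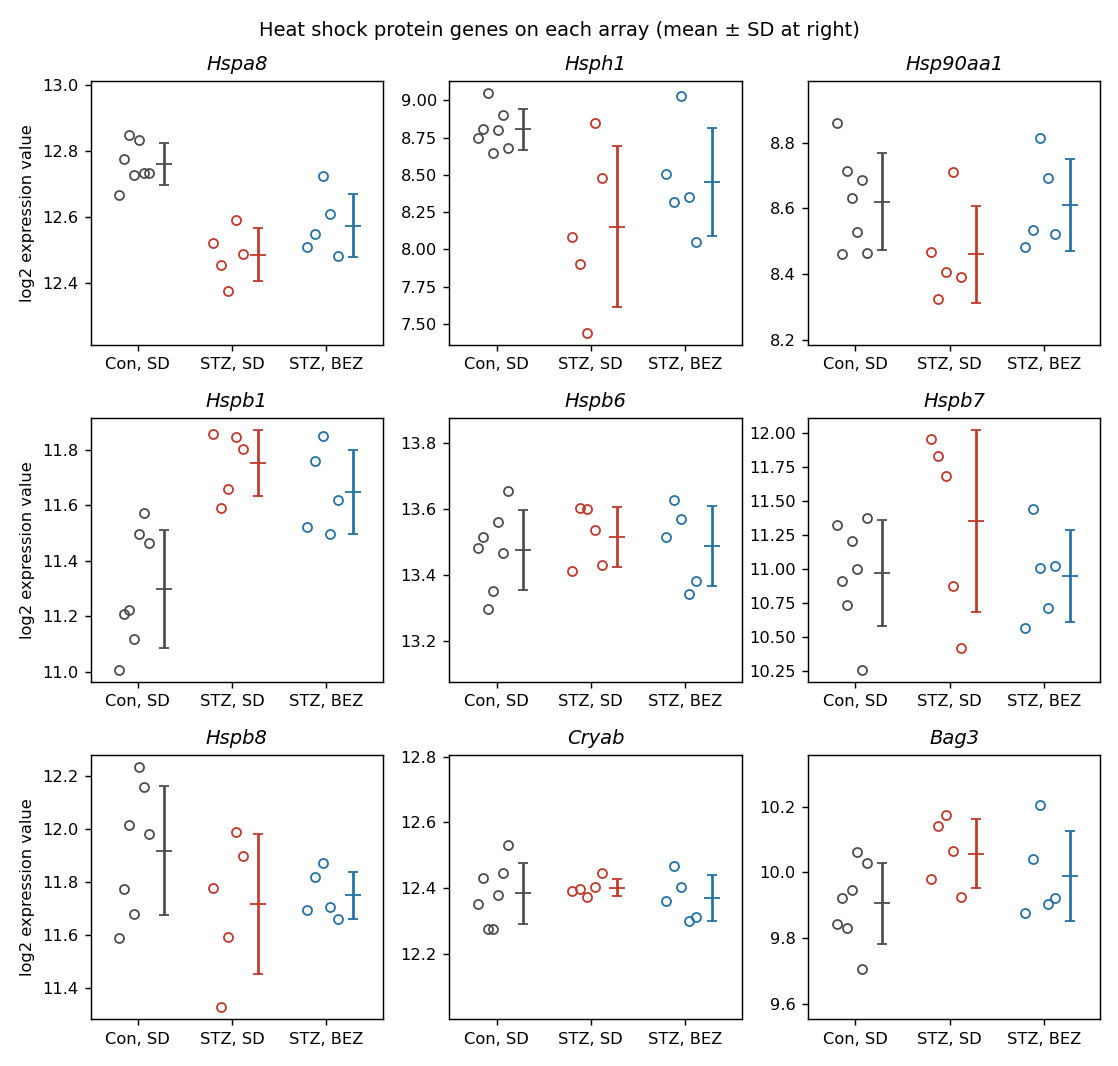
Log2 expression value (vertical axis, a separate scale for each gene) of the 9 measured heat shock protein genes on each array of Con, SD, STZ, SD and STZ, BEZ; circles are mice, and the bar at the right of each group is the mean ± SD. All 5 STZ, SD mice lie below every control for Hspa8 and above every control for Hspb1.

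Hspa8 (chromosome 9, 40801276 to 40805202, GRCm38.p6 here and below) encodes HSC70, the constitutive cytosolic HSP70 that also strips clathrin from vesicles. Its values ran from 12.67 to 12.85 in Con, SD, with a median of 12.73. In STZ, SD they were 12.52, 12.45, 12.38, 12.59 and 12.49 in mice 1 to 5. In STZ, BEZ they were 12.51, 12.55, 12.72, 12.61 and 12.48. All 5 STZ, SD mice lay below all controls, and in STZ, BEZ 4 of 5 did. Groups that did not overlap were seen for 8.30% of all genes in this comparison (4.87% higher and 3.43% lower), and for Hspb1, higher, and Hspa8, lower, among the 9. Expression of Hspa8 fell by 0.27 ± 0.06 in STZ, SD, or 1.21-fold, with an adjusted p of 0.00222 in limma.

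Hspa8 was read by 3 probe sets. The brightest, used here, has neighbours in the numbering of the array on chromosome 5, and the probe set whose neighbours lie on chromosome 9 gave a larger fall of 0.37 ± 0.06 (adjusted p = 0.000215, limma). The Pearson correlations between the 3 over the 17 arrays were 0.871 to 0.989. Whether the probe sets outside the gene's own place read Hspa8 itself or near-identical copies cannot be told apart here, and the same holds for Hsp90aa1 and Hspb1.

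Hsph1 (chromosome 5, 149616843 to 149636498) encodes HSP110, a large relative of HSP70 that makes HSC70 release its nucleotide. Values in Con, SD were 8.65 to 9.05 with a median of 8.80. In STZ, SD they were 8.08, 7.90, 7.44, 8.85 and 8.48, and in STZ, BEZ 8.51, 8.32, 9.03, 8.35 and 8.05. In each streptozotocin group 4 of 5 mice lay below all controls and 1 lay among them. The spread between mice was wider after streptozotocin, with an SD of 0.540 in STZ, SD and 0.363 in STZ, BEZ beside 0.138 in Con, SD. Hsph1 fell by 0.65 ± 0.19 in STZ, SD (1.57-fold, adjusted p = 0.0212 in limma), which was the largest difference among the 9 genes in that comparison, and by 0.48 to 0.83 when each array was left out in turn.

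Mice with low Hspa8 were also those with low Hsph1. Within groups, over the 17 arrays as deviations from their group means, Pearson's r was 0.78 (permutation p = 0.00062, adjusted over 54 relations 0.0112) and Spearman's rho was 0.70 (permutation p = 0.0068, adjusted 0.0491). Without the 2 mice farthest from the median of Hspa8, r was 0.62. The lowest mouse on both was STZ, SD mouse 3.

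Hsp90aa1 (chromosome 12, 110691036 to 110696395) encodes the stress-inducible HSP90, which with UNC45B folds myosin heads. Its values were 8.46 to 8.86 in Con, SD, 8.33 to 8.71 in STZ, SD and 8.48 to 8.82 in STZ, BEZ, and the groups overlapped. The difference of STZ, SD from Con, SD was -0.16 ± 0.08 (adjusted p = 0.194, limma). It passed the threshold with the mean of its 3 probe sets (-0.21, adjusted p = 0.0575) and without STZ, SD mouse 4, whose 8.71 was the highest of its group (-0.22, adjusted p = 0.0693), while without Con, SD arrays 1, 3 and 4 it was -0.07 (adjusted p = 0.627) and with array weights -0.10 (adjusted p = 0.401).

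Hspb1 (chromosome 5, 135887919 to 135889563) encodes the small heat shock protein HSP25, which binds actin and is phosphorylated in stressed muscle. Its values in Con, SD were 11.01 to 11.57 with a median of 11.22. In STZ, SD they were 11.86, 11.59, 11.66, 11.85 and 11.80, and in STZ, BEZ 11.52, 11.76, 11.85, 11.50 and 11.62. The controls formed a lower set of 4 mice, arrays 1 to 4, up to 11.22, and a higher set of 3 from 11.46, and every STZ, SD mouse was above both. Hspb1 rose by 0.45 ± 0.10 in STZ, SD, or 1.37-fold (adjusted p = 0.0033, limma). Its 2 probe sets correlated at 0.998, and the one at the gene's own place gave 0.48 ± 0.09.

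The hepatocyte level of the arrays was not shown to go with Hspb1: within groups r was -0.40 (permutation p = 0.239, adjusted 0.516) and Spearman's rho was -0.39 (permutation p = 0.182, adjusted 0.431), and without the 2 arrays farthest from the median level r was -0.57. Hspb1 remained called in STZ, SD when that level was a covariate, and also without Con, SD array 1. In STZ, BEZ against Con, SD its call was lost with that covariate (0.26, adjusted p = 0.111, limma). What part hepatocyte RNA has in the Hspb1 values was not tested beyond this.

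The other small heat shock proteins were not called in STZ, SD against Con, SD. Hspb6 (chromosome 7, 30552535 to 30555443) encodes HSP20, which is phosphorylated by protein kinase A and relaxes smooth muscle. It averaged 13.47 ± 0.121 in controls, 13.52 ± 0.0913 in STZ, SD mice and 13.49 ± 0.122 in STZ, BEZ mice (SD), and the difference was 0.04 ± 0.07 with a 95% interval of -0.10 to 0.19. Cryab (chromosome 9, 50745951 to 50756636) encodes alpha B-crystallin, the chaperone of desmin. It differed by 0.02 ± 0.05 with an interval of -0.09 to 0.13, the narrowest of the 9 genes. The STZ, SD mice lay within 12.37 to 12.45 for Cryab, inside the controls' 12.28 to 12.53.

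Hspb8 (chromosome 5, 116408491 to 116422864) encodes HSP22, the small heat shock protein that binds BAG3. In Con, SD its values were 11.59 to 12.23 with a median of 11.98, and in STZ, SD 11.78, 11.33, 11.59, 11.99 and 11.90. Only STZ, SD mouse 2 was below all controls, and the difference was -0.20 ± 0.12 (adjusted p = 0.251, limma). When Con, SD arrays 1, 3 and 4 were dropped together it was -0.32 and passed the threshold (adjusted p = 0.0833), and without STZ, SD mouse 2 it shrank to -0.10 (adjusted p = 0.567).

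Bag3 (chromosome 7, 128523583 to 128546981) encodes the co-chaperone that binds HSC70 with its BAG domain. Its values were 9.71 to 10.06 in Con, SD, with a median of 9.92, and 9.98, 10.14, 10.17, 10.07 and 9.92 in STZ, SD. In STZ, SD 3 of 5 mice were above all controls. The difference was 0.15 ± 0.07 (adjusted p = 0.164, limma), and it stayed uncalled in all 31 other settings tried, with values of 0.12 to 0.18.

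**Figure D2:**
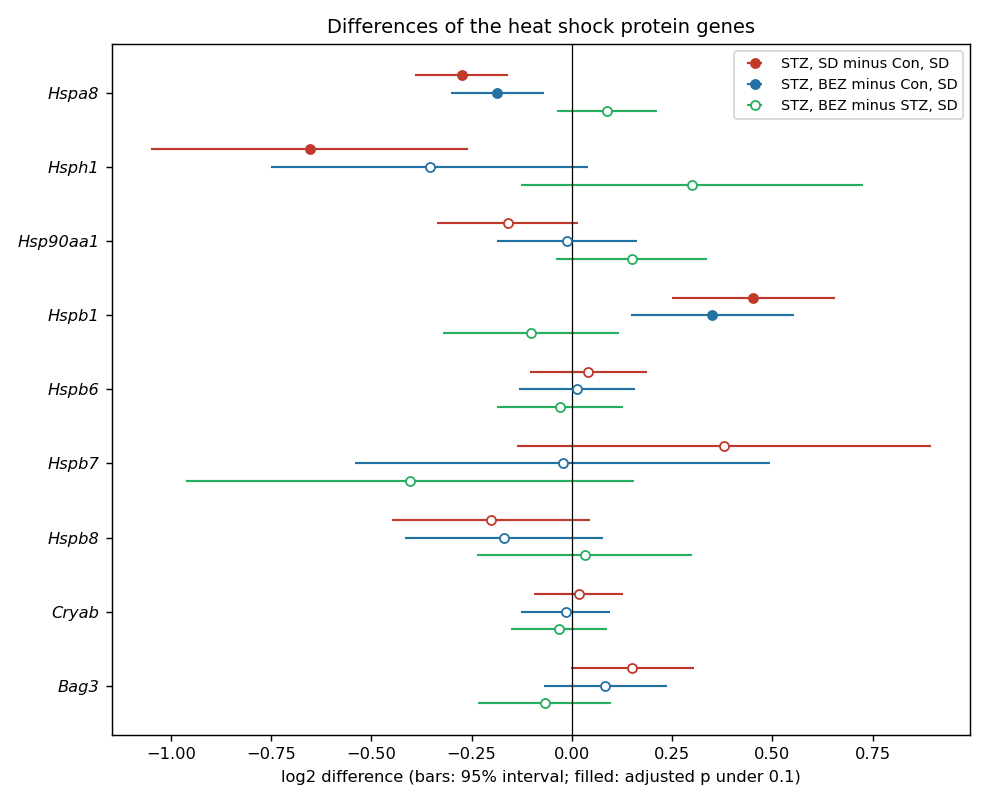
Log2 differences (horizontal axis) of the 9 genes for STZ, SD minus Con, SD, STZ, BEZ minus Con, SD and STZ, BEZ minus STZ, SD, with 95% intervals from limma as bars; filled points have an adjusted p under 0.1. Hspa8 and Hspb1 are filled against Con, SD in both streptozotocin groups, Hsph1 in STZ, SD only, and no point is filled for STZ, BEZ minus STZ, SD.

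Hspb7 (chromosome 4, 141420779 to 141425310) encodes the cardiovascular small heat shock protein of striated muscle, which binds filamin C. Its values in Con, SD were 10.26 to 11.37 with a median of 11.00. In STZ, SD they were 11.95, 11.83, 11.68, 10.87 and 10.42, and in STZ, BEZ 10.56, 11.44, 11.00, 10.71 and 11.02. STZ, SD mice 1 to 3 were above all controls, while mice 4 and 5 lay among them. The difference of 0.38 ± 0.25 between STZ, SD and Con, SD was not called (adjusted p = 0.302, limma). It became 0.61 and passed the threshold without STZ, SD mouse 5 (adjusted p = 0.0688), and 0.23 without mouse 1 (adjusted p = 0.572).

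The order of the mice for Hspb7 followed their slow fibre markers, a list with Myh7, the slow myosin heavy chain, and the slow troponins. Within groups Pearson's r between Hspb7 and the mean of the 7 markers was 0.93 (permutation p = 2e-05, adjusted 0.00108) and Spearman's rho was 0.94 (permutation p = 3e-05, adjusted 0.00162). Without the 2 mice farthest from the median slow level r was 0.91. STZ, SD mice 1, 2 and 3 had slow levels of 10.01, 9.48 and 9.48, and mice 4 and 5 had 7.03 and 6.76, the same split as for Hspb7. Hsph1 had an r of -0.64 with the slow level (permutation p = 0.0181, adjusted 0.122, Spearman's rho -0.71, permutation p = 0.00728, adjusted 0.0491), so it passed the threshold on rho and not on r, and without the 2 farthest mice r was -0.67.

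With the slow level as a covariate, Hspb7 was lower in STZ, BEZ than in STZ, SD by 0.64 (adjusted p = 0.0786, limma) and lower than in Con, SD by 0.44 (adjusted p = 0.0176). In the same fit STZ, SD was above Con, SD by 0.20 and was not called (adjusted p = 0.192), beside 0.38 without the covariate. For STZ, BEZ the differences without the covariate were -0.40 ± 0.27 (adjusted p = 0.949) and -0.02 ± 0.25 (adjusted p = 0.963). The difference of Hspb7 between STZ, BEZ and STZ, SD stayed uncalled in 30 of the 31 other settings. Slow levels of the groups matched only in part. All STZ, BEZ mice were at 8.55 or more, while STZ, SD mice 4 and 5 were at 7.03 and 6.76. Con, SD arrays 2, 3, 5 and 6 were at 7.04, 7.65, 7.53 and 6.76. For STZ, BEZ against either group, the covariate fit thus reaches beyond the slow levels that both groups share. STZ, BEZ mouse 2 had the highest slow level of all, 10.41, and an Hspb7 value of 11.44. The highest of STZ, SD, mouse 1, had 10.01 and 11.95. What part fibre type has in the Hspb7 values was not tested beyond this.

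**Figure D3:**
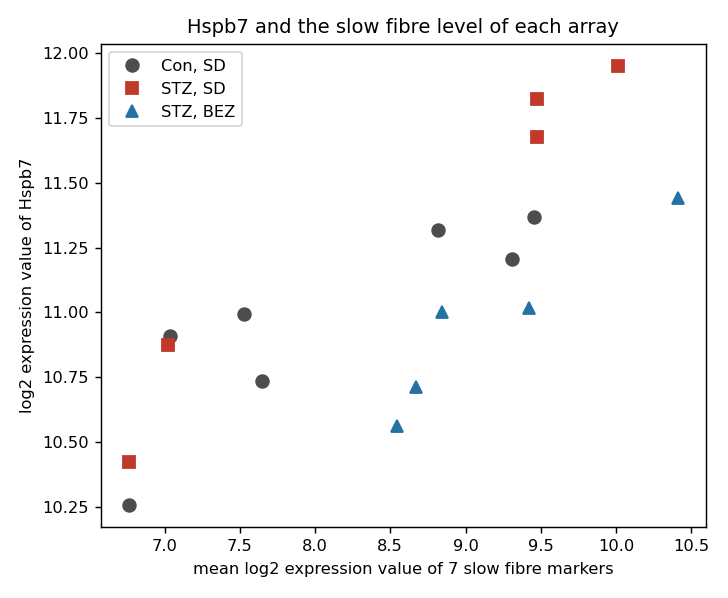
Log2 expression value of Hspb7 (vertical axis) against the mean log2 expression value of 7 slow fibre markers (horizontal axis) on each of the 17 arrays; symbols mark the group. Hspb7 is higher where the slow level is higher, within-group r 0.93, and the STZ, BEZ mice lie below STZ, SD mice 1 to 3.

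Other pairs of the 9 genes also varied together among mice of a group. Of the 36 pairs, 4 had an adjusted p under 0.1 on Pearson's r and 7 on Spearman's rho, the 4 among them. The tightest was Hspb1 with Hspb8, with an r of 0.84 (permutation p = 5e-05, adjusted 0.00135) and a rho of 0.82 (permutation p = 0.00027, adjusted 0.00729), and 0.79 without the 2 farthest mice. The group means of these genes did not move alike: Hspb1 was higher in STZ, SD and Hspb8 was not called, with a difference below 0. Hspb6 and Cryab followed with an r of 0.75 (permutation p = 0.00224, adjusted 0.0302), a rho of 0.71 (permutation p = 0.00654, adjusted 0.0491) and 0.65 without the 2 farthest, although the STZ, SD mice hardly varied in Cryab (SD 0.0269). The last was Hspa8 with Hspb8, at 0.59 (permutation p = 0.009, adjusted 0.0972), a rho of 0.68 (permutation p = 0.00458, adjusted 0.0491) and 0.54 without the 2 farthest. Hspa8 and Hsph1, above, were the other pair. The pairs that passed on rho alone were Hsph1 with Hspb8 (rho 0.65, permutation p = 0.00722, adjusted 0.0491, r 0.57, adjusted 0.122), Hspb6 with Bag3 (rho 0.69, permutation p = 0.00525, adjusted 0.0491, r 0.64, adjusted 0.121) and, in opposite directions, Hsph1 with Hspb7 (rho -0.68, permutation p = 0.0152, adjusted 0.091, r -0.56, adjusted 0.268). The slow level of the mice, as given above, also went with Hspb7 and, on rho, with Hsph1. The part of the slow level in these pairs was not tested. The arrays share RNA quality and normalization, whose part in these relations was not tested either.

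**Figure D4:**
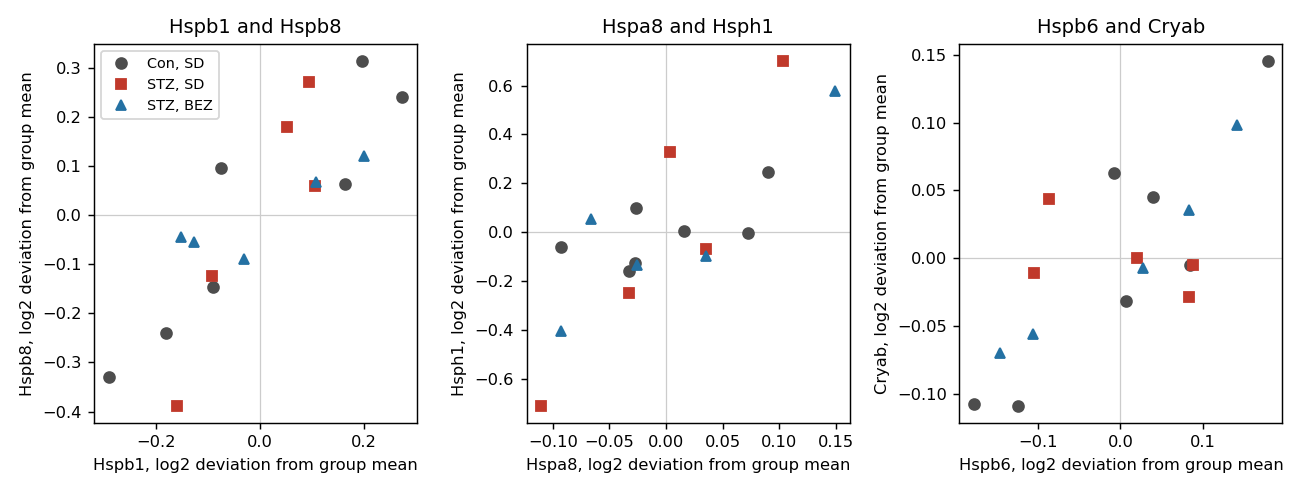
Deviation from the group mean, in log2, of 2 genes on each of the 17 arrays, for Hspb1 and Hspb8 (left), Hspa8 and Hsph1 (middle) and Hspb6 and Cryab (right), with each axis naming its gene and symbols marking the group. The within-group r is 0.84, 0.78 and 0.75; in the right panel the STZ, SD mice hardly vary in Cryab, and the slope comes from the other groups.

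The second comparison, STZ, BEZ against STZ, SD, addressed the effect of bezafibrate in diabetic mice. Here 0 of the 9 genes were called by limma, and 0 by significance analysis of microarrays (SAM), the study's method, while 0.0201% of all genes were called by limma. Of the 9, 0 had an unadjusted p under 0.05 in limma, beside 1134 of all 19938 genes, so 0 of 9 is near the share of genes at large. The groups overlapped for all 9, where 1.16% of all genes did not overlap. The median difference was -0.03 beside 0.00 over all genes. The intervals show what sizes remain possible. For Hspa8 the difference was 0.09 ± 0.06 with an interval of -0.04 to 0.21, and for Hspb1 it was -0.10 ± 0.10 with an interval of -0.32 to 0.12.

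The intervals were wider for the genes that spread most. The difference of Hsph1 was 0.30 ± 0.20 with an interval of -0.13 to 0.73, which includes a return to the control level, and that of Hspb7 ran from -0.96 to 0.16. Hsp90aa1 differed by 0.15 ± 0.09 (-0.04 to 0.34) and Hspb8 by 0.03 ± 0.13 (-0.24 to 0.30). Bag3 differed by -0.07 ± 0.08, Cryab by -0.03 ± 0.06 and Hspb6 by -0.03 ± 0.07, with intervals within -0.23 to 0.13.

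The third comparison, STZ, BEZ against Con, SD, uses the same controls as the first, and its values are given beside them. Hspb1 was called higher and Hspa8 lower, 2 of the 9, where 21.6% of all genes were called, 13.1% higher and 8.45% lower. Hspb1 was 0.35 ± 0.10 above Con, SD (adjusted p = 0.0209, limma), and 3 of 5 mice were above all controls. The call was lost with the hepatocyte level as a covariate (0.26, adjusted p = 0.111) and in the absence of Con, SD arrays 1, 3 and 4 together (0.21, adjusted p = 0.148). Hspa8 was lower by 0.19 ± 0.06 (adjusted p = 0.0309, limma), and its call was lost after a second quantile normalization (-0.13, adjusted p = 0.144), with the slow level as a covariate (-0.16, adjusted p = 0.103) and by SAM. The probe set at its own place gave -0.26 (adjusted p = 0.00429).

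Hsph1 was -0.35 ± 0.19 from Con, SD in STZ, BEZ (adjusted p = 0.217, limma). The mouse among the controls was STZ, BEZ mouse 3 at 9.03, and without it the difference was -0.50 and was called (adjusted p = 0.0874). With all mice it was called by SAM and with only the 2 groups in the fit (adjusted p = 0.0916, limma). It stayed uncalled in 28 of the 31 other settings, and its values over the 31 ran from -0.50 to -0.14. Groups overlapped for all 9 genes in this comparison, where 8.51% of all genes did not. The remaining 6 genes were not called, with differences of -0.17 for Hspb8, -0.02 for Hspb7 and Cryab, -0.01 for Hsp90aa1, 0.01 for Hspb6 and 0.08 for Bag3. The median over the 9 was -0.02, beside -0.01 for all genes.

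The rest of the chaperone system was described by lists of related genes, with counts from the same fits. The HSP90 co-chaperones carry clients to HSP90 or set the pace of its ATP cycle, and 9 of 17 were called lower and 1 higher in STZ, SD than in Con, SD, with a median difference of -0.31. Of all genes 11.9% were lower and 13.9% higher. The count of co-chaperones called lower was 9 to 11 in the 31 other settings. In STZ, BEZ against Con, SD 6 were lower and 0 higher (4 to 9 lower in the other settings). There 8.45% of all genes were lower and 13.1% higher. The lowest count, 4, came with the slow level as a covariate. In STZ, BEZ against STZ, SD 0 of 17 were called, with a median of 0.15, where 0.0201% of all genes were called.

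Stip1 encodes HOP, which bridges HSC70 and HSP90. Its values were 9.95 to 10.17 in Con, SD (median 10.12), 9.29 to 9.81 in STZ, SD (median 9.61) and 9.53 to 9.92 in STZ, BEZ (median 9.73), so both streptozotocin groups lay below all controls. It fell by 0.55 ± 0.09 in STZ, SD (adjusted p = 0.000301, limma) and by 0.38 ± 0.09 in STZ, BEZ (adjusted p = 0.00647). The difference between STZ, BEZ and STZ, SD was 0.17 and was not called.

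Ahsa1 and Ahsa2 encode activators of the HSP90 ATPase. Ahsa1 was 9.43 to 9.95 in Con, SD and 9.01 to 9.30 in STZ, SD, without overlap, and fell by 0.54 ± 0.08 (adjusted p = 0.000276, limma). Ahsa2 was 8.03 to 8.30 in Con, SD and 7.12 to 7.97 in STZ, SD, also without overlap, and fell by 0.59 ± 0.13 (adjusted p = 0.00395). In STZ, BEZ Ahsa1 was lower by 0.37 ± 0.08 (adjusted p = 0.00697) and Ahsa2 by 0.34 ± 0.13 (adjusted p = 0.0822). The call of Ahsa2 was lost in 7 of 17 fits that left out 1 array, with values of -0.43 to -0.30 over the 17. It was also lost in 3 of 14 other settings, among them the slow level as a covariate (-0.23, adjusted p = 0.261, limma).

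Cacybp encodes a partner of HSP90 and of a ubiquitin ligase, Cdc37 the co-chaperone that brings protein kinases to HSP90, and Unc45b the muscle co-chaperone that folds myosin with it. These 3 were singled out after their values were seen. Cacybp fell by 0.51 ± 0.09, Cdc37 by 0.38 ± 0.06 and Unc45b by 0.31 ± 0.08 in STZ, SD, with adjusted p of 0.00116, 0.000636 and 0.012 in limma. The values of Unc45b overlapped between STZ, SD (10.01 to 10.49) and Con, SD (10.35 to 10.64).

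Fkbp5, an HSP90 co-chaperone of steroid receptors that glucocorticoids induce, went the other way. Its values were 7.51 to 7.68 in Con, SD, 7.57 to 9.04 in STZ, SD and 7.24 to 8.30 in STZ, BEZ. It rose by 0.63 ± 0.23 in STZ, SD (adjusted p = 0.0628, limma), but the call was lost without STZ, SD mouse 2 (0.41, adjusted p = 0.195) or mouse 3 (0.50, adjusted p = 0.178). In STZ, BEZ it differed by -0.47 from STZ, SD (adjusted p = 0.914) and by 0.16 from Con, SD (adjusted p = 0.681).

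**Figure D5:**
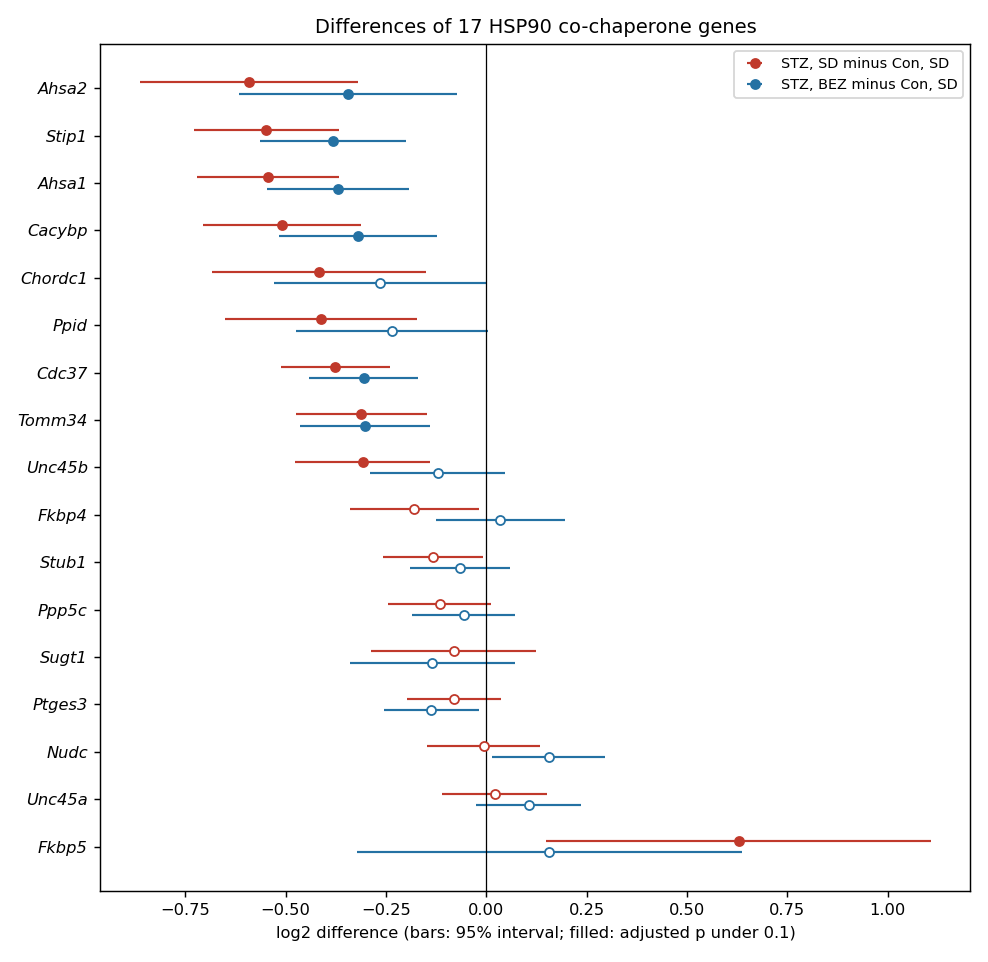
Log2 differences (horizontal axis) of 17 HSP90 co-chaperone genes for STZ, SD minus Con, SD and STZ, BEZ minus Con, SD, with 95% intervals from limma as bars; filled points have an adjusted p under 0.1. In STZ, SD 9 genes are filled below 0 and Fkbp5 is filled above 0; in STZ, BEZ 6 are filled, all below 0.

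Other cytosolic HSP70 and HSP110 genes gave 3 higher and 0 lower of 9 measured in STZ, SD, with a median of 0.03, where 13.9% of all genes were higher and 11.9% lower. Hspa12b, a distant HSP70 of endothelium, was higher by 0.25 ± 0.07 (adjusted p = 0.0158, limma), and 5 of 10 endothelial markers were higher as well, with 0 lower, beside the same 13.9% of all genes. The part of endothelium in Hspa12b was not tested. Hspa1a, the stress-inducible HSP70, was 7.51 to 7.99 in Con, SD, 7.67 to 8.40 in STZ, SD and 7.85 to 8.69 in STZ, BEZ. It was called at 0.36 ± 0.14 in STZ, SD (adjusted p = 0.0885) and 0.37 ± 0.14 in STZ, BEZ (adjusted p = 0.0878). These calls were lost in 10 and 8 of 17 fits without 1 array and in 7 and 6 of 14 other settings. Without 1 array the differences were 0.28 to 0.46 and 0.23 to 0.44, the lowest of the latter without STZ, BEZ mouse 3. The near-identical neighbour of Hspa1a, Hspa1b, is not analysed here, and the probe set of Hspa1a may read both.

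J-domain proteins, which bring clients to HSC70, gave 2 higher and 2 lower of 12 in STZ, SD. In this comparison 13.9% of all genes were higher and 11.9% lower. Dnaja1, the main cytosolic partner of HSC70, fell by 0.40 ± 0.09 (adjusted p = 0.00467, limma), with values of 7.78 to 8.21 below the controls' 8.26 to 8.57. In STZ, BEZ it was lower by 0.24 ± 0.09 (adjusted p = 0.0771), a call lost in 7 of 17 fits without 1 array and in 5 of 14 other settings. With the mean of its probe sets in place of the brightest one it was -0.10 (adjusted p = 0.529). Dnajb12, a J-domain protein of the endoplasmic reticulum membrane, rose by 0.38 ± 0.06 (adjusted p = 0.000537).

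Of 5 other genes listed as small heat shock proteins 2 were lower and 0 higher in STZ, SD, where 11.9% of all genes were lower and 13.9% higher. Hspb3, a muscle form, fell by 0.46 ± 0.13 (adjusted p = 0.0164, limma), from 9.28 to 9.68 in Con, SD to 8.36 to 9.35. Without STZ, SD mouse 2 the difference was -0.30 and was still called. Its partner Hspb2 differed by -0.12 ± 0.07 (adjusted p = 0.211). The other gene called lower was Hspb11, by 0.21 ± 0.07 (adjusted p = 0.041, limma). Its values were 5.10 to 5.41 in Con, SD and 4.95 to 5.29 in STZ, SD, below the lowest array median of 6.22. Nucleotide exchange factors and other BAG proteins gave 0 higher and 2 lower of 7, beside those same shares of all genes. Their median was 0.09, and Hspbp1, an exchange factor of HSC70, was lower by 0.31 ± 0.10 (adjusted p = 0.0311). In STZ, BEZ against Con, SD that list gave 3 higher and 1 lower, where 13.1% of all genes were higher and 8.45% lower.

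Heat shock factors and their binding protein were measured for 3 of 4 genes, and Hsf1, the main one, had no probe set under its single symbol. Hsf2 differed by 0.07 ± 0.07 in STZ, SD (adjusted p = 0.497, limma). Hsbp1, which binds the trimer of heat shock factor, fell by 0.24 ± 0.05 (adjusted p = 0.0052), from 11.25 to 11.52 in Con, SD to 11.00 to 11.18, without overlap. In STZ, BEZ it was lower by 0.24 ± 0.05 as well (adjusted p = 0.00744).

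Stub1 encodes CHIP, the ubiquitin ligase that marks the clients of HSC70 and works with BAG3 at the Z-disc. It differed by -0.13 ± 0.06 in STZ, SD (adjusted p = 0.129, limma) and passed the threshold after median centring (-0.15, adjusted p = 0.0959), without Con, SD mouse 6 (-0.16, adjusted p = 0.0799) and without STZ, SD mouse 4 (-0.16, adjusted p = 0.0931). Of 8 partners and clients of BAG3 at the Z-disc, 2 were higher and 0 lower, where 13.9% of all genes were higher and 11.9% lower. The chaperonin and prefoldin genes, which fold actin and tubulin, gave 1 higher and 4 lower of 14, beside those same shares of all genes. Their median was -0.05. Among the 4 lower were Cct4 at -0.42 ± 0.08 (adjusted p = 0.00199) and Cct7 at -0.39 ± 0.08 (adjusted p = 0.00175).

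Mitochondrial chaperones gave 1 higher and 2 lower of 8 in STZ, SD, where 13.9% of all genes were higher and 11.9% lower. The one that rose was Clpx, the unfoldase of the matrix, by 0.37 ± 0.07 (adjusted p = 0.00163, limma). The cold-inducible RNA-binding proteins were not called. Cirbp differed by 0.12 ± 0.08 (adjusted p = 0.339), and Rbm3 by 0.00 ± 0.11 (adjusted p = 0.984), a value whose sign turned between settings. In STZ, BEZ against STZ, SD 0 genes of any chaperone list were called, beside 0.0201% of all genes.

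Con, SD array 1, with its hepatocyte and testis RNA, touched few of these results. Without it Hspa8, Hsph1 and Hspb1 remained called in STZ, SD, while the calls of Hspa1a in STZ, SD (0.32, adjusted p = 0.123 by limma) and in STZ, BEZ (0.33, adjusted p = 0.119) and of Dnaja1 in STZ, BEZ (-0.22, adjusted p = 0.107) were lost. In STZ, BEZ Hspa8 and Hspb1 remained called without it. Of the 13 hepatocyte markers 2 were called lower in STZ, SD and 7 in STZ, BEZ than in Con, SD, with medians of -0.76 and -1.11. The shares of all genes called lower there were 11.9% and 8.45%.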

How the data were processed

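Whole skeletal muscle RNA was measured on 17 Affymetrix arrays of the Mouse Gene 1.0 ST design. The authors deposited log2 expression values after RMA, and the submitters' processing notes list Affymetrix Expression Console 1.2. RMA forces the arrays to a common distribution, which would hide a change shared by most genes. The values ran from 2.76 to 14.6, with array medians of 6.22 to 6.32 and 0 missing. Scan dates and detection p-values were not used here, no batch could be tested, and the number of arrays limits the precision.

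Of 35556 probe sets, 21789 had 1 gene symbol, 1621 several and 12146 none in GEO's platform annotation, and 21698 of those with 1 symbol were matched to RefSeq genes of GRCm38.p6. Keeping the brightest probe set of the 999 genes with several left 19938 genes. Groups came from the labels. All comparisons came from 1 limma 3.58.1 fit (lmFit and eBayes, R 4.3.3) over the 17 arrays, with Benjamini-Hochberg adjustment over all genes and calls at an adjusted p under 0.1, since the study worked at a false discovery rate of 10%. SAM was rerun as an alternative in a new implementation with 100 permutations. Relations between genes were tested with 100000 permutations within groups (Python 3.11.15, numpy 2.4.6, two-sided), and 54 were computed. The fitting script was tested on simulated data.

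The heat shock protein genes, the companion lists and the tests were chosen with earlier results of these data known. The text names all 10 genes, of each companion list at most the 4 called genes with the largest difference in a comparison, and Hsf1, Hsf2, Hspa1a, Hspa1b, Hspb2, Stub1, Cirbp and Rbm3. Cacybp, Cdc37 and Unc45b in STZ, SD with Con, SD were chosen after their values were seen, and so were the probe set at the gene's own place and the sequences printed. Leaving out Con, SD arrays 1, 3 and 4 together was taken from an earlier analysis of these data. A probe set's place was judged from the 10 probe sets on each side in number.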

Additional observations from a re-analysis of the deposited data

How the results depend on the processing

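Each result was recomputed in 31 other settings, 17 of which left out 1 array. The 9 measured genes gave 837 such values over the 3 comparisons, of which 786 kept their direction and their side of the threshold, 37 changed sign, 9 became called and 5 lost their call. In STZ, SD against Con, SD, Hspa8, Hsph1 and Hspb1 were called in all 31. All 37 changes of sign were of differences that had not been called. For STZ, BEZ minus Con, SD these were Cryab (0.0260 after a second quantile normalization and 0.0262 with the replicate block), Hsp90aa1 (0.0206 with array weights, 0.0199 with the hepatocyte covariate, 0.0176 with the slow covariate and 0.0748 without Con, SD arrays 1, 3 and 4), Hspb6 (-0.0022 with weights, -0.0107 with the slow covariate and -0.0608 without the 3 controls) and Hspb7 (0.0474 with weights, 0.0795 with the hepatocyte covariate and 0.0644 without the 3 controls). For STZ, SD minus Con, SD they were Cryab (-0.0025 with weights and -0.0451 without the 3 controls) and Hspb6 (-0.0324 without the 3 controls), and for STZ, BEZ minus STZ, SD Hspb8 (-0.0048 with weights and -0.0080 with the hepatocyte covariate). Among the companion genes Rbm3 turned to -0.0127 with median centring, -0.0276 with the mean of the probe sets, -0.0783 with weights, -0.0155 with the slow covariate, -0.0835 without the 3 controls and -0.0175 with the block, and Fkbp5 in STZ, BEZ minus Con, SD to -0.0037 with the slow covariate. Without 1 array, sign changes occurred within -0.0624 to 0.0288 for Hsp90aa1, -0.147 to 0.0733 for Hspb7, -0.0225 to 0.0492 for Hspb6 and -0.0399 to 0.0088 for Cryab in STZ, BEZ minus Con, SD, -0.0012 to 0.0412 for Cryab and -0.0611 to 0.0787 for Rbm3 in STZ, SD minus Con, SD, and -0.0645 to 0.101 for Hspb8 and -0.0636 to 0.0080 for Hspb6 in STZ, BEZ minus STZ, SD. Of the 9 genes, the number higher in STZ, BEZ than in Con, SD became 0 with the hepatocyte covariate and without the 3 controls, and the number lower became 0 after a second quantile normalization and 2 with only 2 groups in the fit, and 1 to 2 without 1 array. In STZ, SD against Con, SD 1 to 2 were higher and 2 to 3 lower without 1 array, and 1 was lower in STZ, BEZ than in STZ, SD with the slow covariate. The genes called in all numbered 8673 and 7408 against Con, SD with every probe set as a row, where more features were tested. In STZ, BEZ against STZ, SD they numbered 8 with only 2 groups in the fit, 11 with weights, 24 by SAM, 11 with the hepatocyte covariate, 7 with the slow covariate and 7 without the 3 controls. The cause of these shifts was not tested. Replicate numbers gave no sign of pairing the mice: deviations of same-numbered arrays correlated at -0.24 to 0.083, with 0 of 15 pairs over 0.1. Arrays of unlike number were not set beside them, so a shared litter or day was not tested. With the number as a block, fitted over the numbers the groups share, 2532 genes were higher and 2066 lower in STZ, SD and 5 were called in STZ, BEZ against STZ, SD, and among the 9 genes the counts were 1 higher and 2 lower, 0, and 1 higher and 1 lower. Among the companions the block ended the calls of Fkbp5 (0.62) and Hspbp1 (-0.21) in STZ, SD and of Dnaja1 (-0.23) and Ahsa2 (-0.37) in STZ, BEZ.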
